A study of Mus musculus with 9 samples.

Results

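The 10 genes described here encode the sensors and core factors of the unfolded protein response, the program that cells use to adjust the folding capacity of the endoplasmic reticulum (ER). They were taken by symbol (Ern1, Xbp1, Atf6, Atf6b, Mbtps1, Mbtps2, Eif2ak3, Atf4, Ddit3 and Ppp1r15a) from a table of read counts that lists 24420 symbols, and all 10 were present and passed the filter on low counts. The data are RNA sequencing of pancreatic islets of female mice, 5 libraries labelled WT and 4 labelled KO, and the comparison asks how transcript levels differ when beta cells lack Ogt, the enzyme that attaches O-GlcNAc to proteins of the nucleus and cytosol. KO mice were Rip-cre; Ogt f/f, in which an insulin promoter drives Cre recombinase against 2 floxed Ogt alleles, so other islet cells keep the gene. WT mice carried no Cre but did carry floxed alleles, Ogt f/+ in WT 1 and WT 3 and Ogt f/f in WT 2, WT 4 and WT 5. No group carried Cre without floxed alleles, so effects of the transgene and of the deletion cannot be told apart. WT 1 to 3 and KO 1 and 2 were sequenced in run 1, and WT 4 and 5 and KO 3 and 4 in run 3. The age of the mice, the floxed exons and whether each library came from a separate animal are not given in the labels, so every p-value is set by library-to-library spread, part of which could be technical.

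The unfolded protein response is read by 3 proteins that span the ER membrane. IRE1, the product of Ern1, is a kinase and nuclease that cuts an intron out of Xbp1 RNA and so switches the protein made from it. PERK, the product of Eif2ak3, phosphorylates the translation factor eIF2, which slows most protein synthesis and favours translation of ATF4. ATF6 and ATF6B move to the Golgi, where the proteases S1P (Mbtps1) and S2P (Mbtps2) release their transcription factor domains. ATF4 drives Ddit3, which encodes the transcription factor CHOP, and CHOP and ATF4 in turn drive Ppp1r15a, whose product GADD34 brings a phosphatase to eIF2 and ends the block on translation. Beta cells make large amounts of proinsulin in the ER and depend on PERK and IRE1 for their function. Transcript levels do not show the activity of the sensors, which is set by phosphorylation, splicing and proteolysis.

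A table of gene counts cannot separate the unspliced and spliced forms of Xbp1, and the sequence that distinguishes them is therefore shown first. IRE1 excises 26 bases from exon 4 of the transcript Xbp1-201, at chr11:5524282-5524307 on the plus strand (GRCm38, GENCODE M21). These 26 bases are in capitals in the stretch chr11:5524258-5524331, and the removal of a length that is 2 above a multiple of 3 shifts the reading frame. Reads of both forms are summed in every Xbp1 value given here.
Xbp1: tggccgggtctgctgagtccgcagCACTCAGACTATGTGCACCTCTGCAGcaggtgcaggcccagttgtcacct

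Total counts ranged from 3796043 to 4462754 per library in run 1 and from 5150443 to 6073537 in run 3. Rn45s, the precursor of ribosomal RNA, held 9.62% to 28.5% of each library. Ogt was lower in every KO library, at 23.7, 24.1, 30.9 and 39.3 CPM (counts scaled to a common library size) in KO 1 to 4 against 54.1 to 83.0 in WT, a log2 fold change of -1.30 (edgeR adjusted p = 2.44e-05). Marker genes of acinar cells, the enzyme-secreting cells around islets, summed to between 3032 and 7688 CPM in WT and to 2614 and 563 CPM in KO 1 and KO 2 in run 1, and to between 132 and 339 CPM in all libraries of run 3. Of 18 acinar markers tested, 4 were called lower in KO and 0 higher, and none of the 22 on the list was at 0 in every library. Beta cell markers were present in all libraries, at a summed 47900 to 110232 CPM in WT and 42845 to 83074 CPM in KO. Of these, 5 of 10 were called lower. Ins1 (log2 fold change 0.19), Ins2 (-0.16), Pdx1 (0.13), Slc2a2 (-0.09) and G6pc2 (-0.56) were not called. Alpha, delta and PP cell markers were called higher in 3 of 11. Over all tested genes, 8.96% were called lower and 9.56% higher. Fibroblast and stellate markers, 1 of 6 called higher and 0 lower (median log2 fold change 0.56), summed to between 86.5 and 218 CPM in WT and 183 and 310 CPM in KO in run 1, and to between 500 and 704 CPM in WT and 785 and 857 CPM in KO in run 3. Their part in the results on the 10 genes was not tested. In a bulk sample, fewer cells of a type and less RNA per cell cannot be told apart.

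Of the 10 genes, 5 fell in KO islets and 0 rose, where a gene was called at an adjusted p under 0.05 in edgeR's quasi-likelihood test with sequencing run as a term. The genes that fell were Ern1, Xbp1, Eif2ak3, Atf4 and Ddit3, that is 5 of 10, while 8.96% of the 12501 genes tested were called lower, 9.56% higher and 18.5% in either direction. The fitted change was -64.4% for Ddit3, -39.6% for Atf4, -33.1% for Eif2ak3, -26.8% for Ern1 and -22.0% for Xbp1. The ATF6 pair, the proteases and Ppp1r15a were not called. By the grouping above, the genes called lower belonged to the IRE1 and PERK branches, though not all PERK-branch genes were called. Called and uncalled members were not tested against each other, so the calls do not show that the ATF6 branch was spared. Without the run term 2 genes were called (Eif2ak3 and Atf4), in a fit that called 5.38% of all genes. With library totals in place of TMM scaling 3 were called (these and Ddit3), where 16.4% of all genes were.

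**Figure D1:**
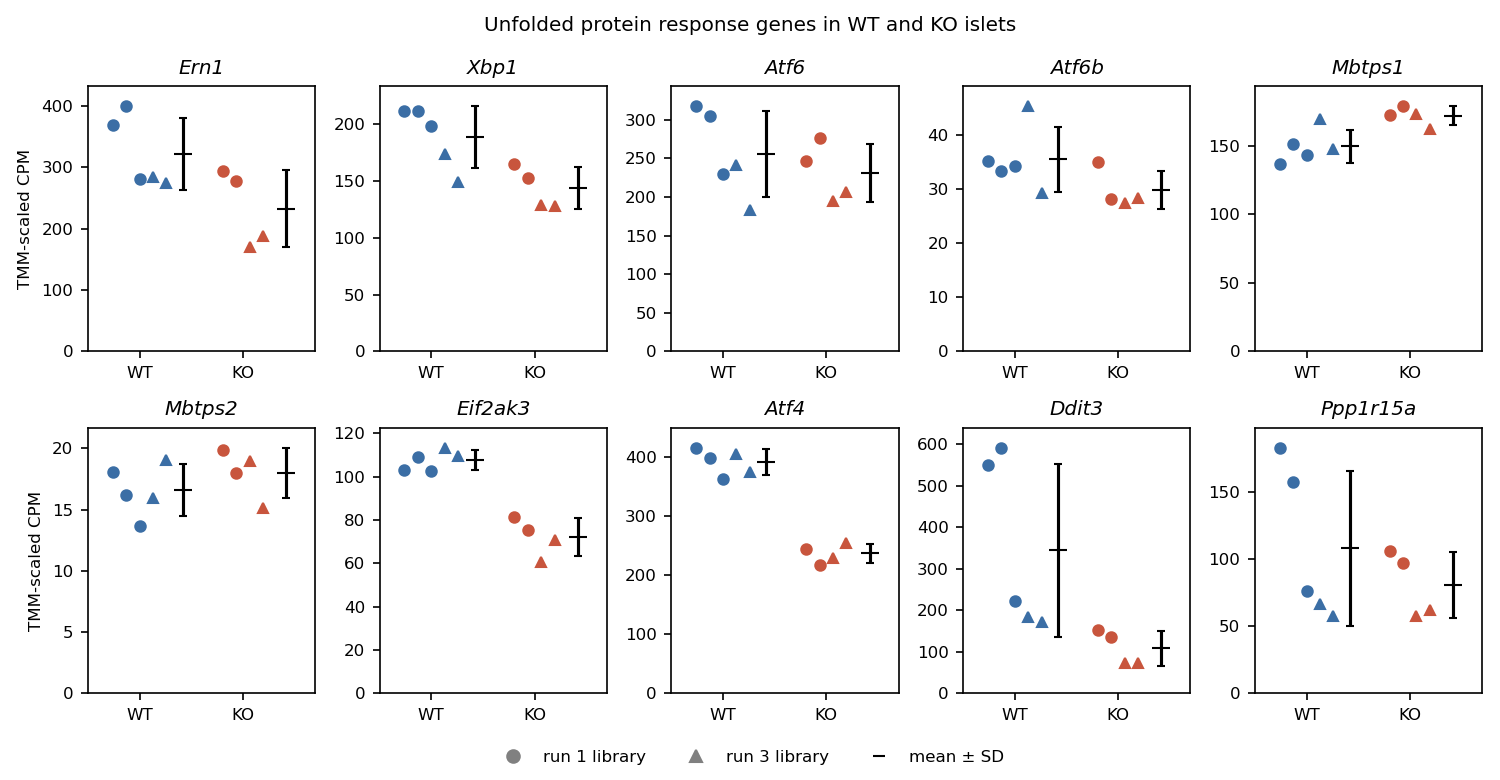
TMM-scaled CPM of the 10 genes in each library, on axes that start at 0, with WT in blue, KO in red, circles for run 1, triangles for run 3 and the mean ± SD of each group at the right. All KO points lie below all WT points for Eif2ak3, Atf4 and Ddit3, while Ddit3 and Ppp1r15a show WT 1 and WT 2 far above the other WT libraries.

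Eif2ak3 (chr6:70844515-70905245, plus strand) encodes PERK. It measured 103, 109, 102, 113 and 109 CPM in WT 1 to 5, on library sizes scaled by the TMM method, and 81.4, 75.5, 60.5 and 70.9 CPM in KO 1 to 4. Every KO library lay below every WT library, and the WT libraries varied by a coefficient of 4.33%. The means were 108 ± 4.65 CPM over the 5 WT libraries and 72.0 ± 8.83 CPM over the 4 KO libraries (mean ± SD). The log2 fold change was -0.58 ± 0.09 (SE, 95% interval -0.77 to -0.39, edgeR adjusted p = 0.000434).

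Atf4 (chr15:80255184-80257541, plus strand) encodes the transcription factor that is translated when eIF2 is phosphorylated. Its levels were 415, 397, 362, 404 and 374 CPM in WT 1 to 5 and 245, 218, 229 and 254 CPM in KO 1 to 4. The KO libraries lay together, and the highest of them was well below the lowest WT library. Atf4 averaged 390 ± 22.0 CPM over the 5 WT libraries and 236 ± 16.2 CPM over the 4 KO libraries (mean ± SD), and its log2 fold change was -0.73 ± 0.08 (SE, 95% interval -0.89 to -0.56, edgeR adjusted p = 1.98e-05). Among the 10 genes Atf4 had the lowest p, at rank 54 of the 12501 genes tested. Neither Eif2ak3 nor Atf4 was called between the runs, and Atf4 differed by 0.02 on the log2 scale between run 3 and run 1.

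Ddit3 (chr10:127290774-127296288, plus strand) encodes CHOP, a factor linked to cell death under long ER stress. In run 1 it measured 551, 592 and 224 CPM in WT 1 to 3 and 153 and 137 CPM in KO 1 and 2. In run 3 it measured 184 and 173 CPM in WT 4 and 5 and 72.8 and 72.3 CPM in KO 3 and 4. WT 1 and WT 2 stood far above the other WT libraries, yet the lowest WT library was still above the highest KO library. The mean was 345 ± 208 CPM over the 5 WT libraries and 109 ± 42.3 CPM over the 4 KO libraries (mean ± SD). The log2 fold change was -1.49 ± 0.21 (SE, 95% interval -1.93 to -1.05, edgeR adjusted p = 0.000184), and 0.744% of tested genes were called lower by at least 2-fold. Without WT 1 and WT 2, an alternative chosen after seeing the data, Ddit3 was still called, at -1.04. Without the run term Ddit3 was not called, though its value was -1.67.

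Ern1 (chr11:106394650-106487852, minus strand) encodes IRE1. Its WT levels were 369, 401 and 281 CPM in run 1 and 284 and 275 CPM in run 3, and its KO levels were 294 and 278 CPM in run 1 and 170 and 188 CPM in run 3. The groups overlapped in run 1, where WT 3 lay between KO 1 and KO 2, and were apart in run 3. Ern1 averaged 322 ± 58.5 CPM over the 5 WT libraries and 233 ± 62.7 CPM over the 4 KO libraries (mean ± SD), with a log2 fold change of -0.45 ± 0.10 (SE, 95% interval -0.67 to -0.23, edgeR adjusted p = 0.00722). Ern1 was no longer called without the run term, at -0.47, or with library totals in place of TMM scaling, at -0.34.

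Xbp1 (chr11:5520659-5525893, plus strand) encodes the factor whose RNA IRE1 splices. In WT it measured 212, 212 and 199 CPM in run 1 and 174 and 149 CPM in run 3, and in KO 165 and 153 CPM in run 1 and 129 and 128 CPM in run 3. Within each run every KO library was below every WT library, while KO 1 and KO 2 lay above WT 5 of the other run. The means were 189 ± 27.3 CPM over the 5 WT libraries and 144 ± 18.5 CPM over the 4 KO libraries (mean ± SD). The log2 fold change of -0.36 ± 0.08 (SE, 95% interval -0.52 to -0.20, edgeR adjusted p = 0.00395) was the smallest of the 5 that were called. As for Ern1, the Xbp1 call was lost without the run term, at -0.40, and with library totals, at -0.25.

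Atf6 (chr1:170704674-170867771, minus strand) and Atf6b (chr17:34647146-34655074, plus strand) encode the sensors that are themselves transcription factors. Atf6 measured 318, 305, 229, 242 and 183 CPM in WT 1 to 5 and 247, 276, 194 and 206 CPM in KO 1 to 4. These groups overlapped in both runs, and the log2 fold change was -0.10 (95% interval -0.33 to 0.12, edgeR adjusted p = 0.535). Atf6b, at 29.4 to 45.5 CPM in WT and 27.4 to 35.0 CPM in KO, also overlapped, with a log2 fold change of -0.27 (95% interval -0.56 to 0.02, edgeR adjusted p = 0.191). The interval for Atf6b includes a fall as large as that of Ern1. Without WT 4 the value was -0.10 for Atf6b and -0.03 for Atf6, and without WT 5 it was -0.36 and -0.19, none of them called.

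Mbtps1 (chr8:119508156-119558735, minus strand) and Mbtps2 (chrX:157535371-157598715, minus strand) encode the proteases S1P and S2P. Mbtps1 measured 137, 151, 143, 169 and 147 CPM in WT 1 to 5 and 172, 179, 173 and 162 CPM in KO 1 to 4. In run 1 its KO libraries were above all WT libraries, and in run 3 the groups overlapped. The log2 fold change of Mbtps1 was 0.20 (95% interval 0.03 to 0.36), which the adjustment over all genes left short of the threshold (edgeR adjusted p = 0.10). Mbtps2 was the scarcest of the genes, at 13.7 to 19.1 CPM in WT and 15.1 to 19.9 CPM in KO, and its log2 fold change was 0.10 (95% interval -0.22 to 0.43, edgeR adjusted p = 0.686). Of the Mbtps2 exon bases, 28.4% are shared on the same strand with Yy2, which itself held between 0 and 14 counts per library.

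Ppp1r15a (chr7:45522916-45526268, minus strand) encodes GADD34, which reverses eIF2 phosphorylation. It measured 183, 158 and 76.1 CPM in WT 1 to 3 and 106 and 97.4 CPM in KO 1 and 2. In run 3 the values were 66.4 and 57.4 CPM in WT 4 and 5 and 57.8 and 62.1 CPM in KO 3 and 4. KO 1 and KO 2 thus lay between WT 3 and the other WT libraries of run 1, and the groups of run 3 overlapped. The log2 fold change was -0.27 ± 0.18 (SE, 95% interval -0.66 to 0.12, edgeR adjusted p = 0.345), and the WT coefficient of variation was 53.6%. The call depended on the libraries included: without WT 3 Ppp1r15a was called at -0.40, and without both WT 1 and WT 2 its value was 0.13 and not called.

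Changes within each run came from 1 fit of all 9 libraries. The runs shared 1 spread in that fit, so neither was tested by itself. Within run 1, Xbp1, Eif2ak3, Atf4 and Ddit3 were called lower, 4 of 10 genes, against 4.86% of all tested genes. Within run 3, Ern1, Eif2ak3, Atf4 and Ddit3 were called lower, against 2.13% of all tested genes. The log2 fold change of Ern1 was -0.29 in run 1 and -0.64 in run 3, and that of Eif2ak3 was -0.42 and -0.76. For Ddit3 the order was the other way, -1.65 in run 1 and -1.30 in run 3. In the test of these differences, the interaction of genotype and run, edgeR called 0 genes of the 12501 (0%), with 744 at an unadjusted p under 0.05, and DESeq2 called 1. All KO libraries were below all WT libraries within each run for 4 of the genes (Xbp1, Eif2ak3, Atf4 and Ddit3), against 11% of tested genes, and over both runs for 3 of them, against 5.13%.

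**Figure D2:**
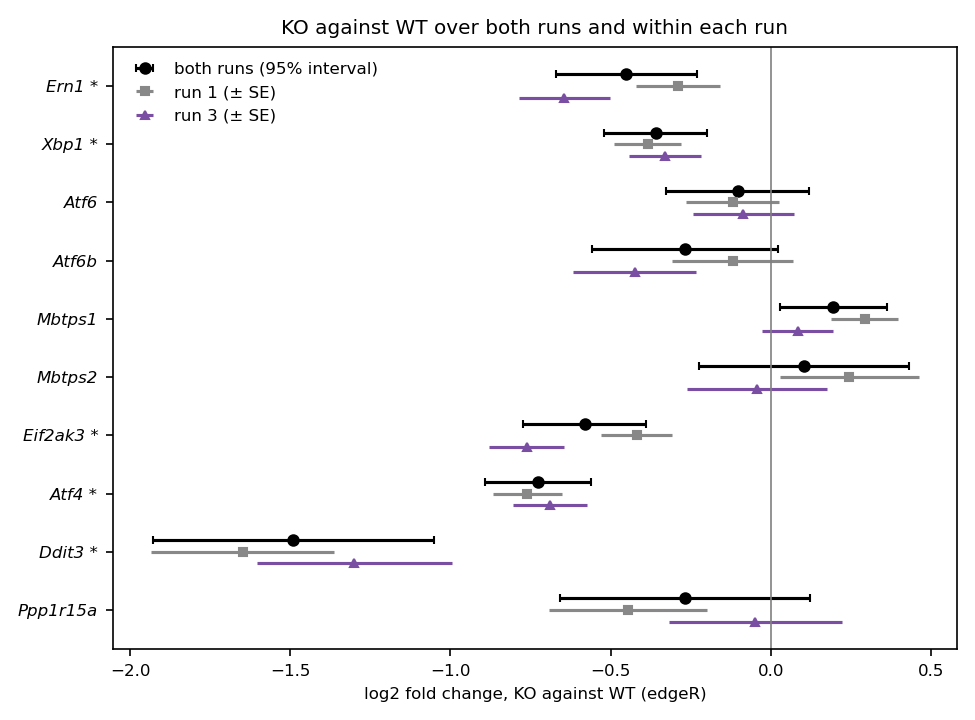
Log2 fold change of KO against WT for the 10 genes, with the 95% interval over both runs in black and the value ± SE within run 1 (grey squares) and run 3 (purple triangles); an asterisk marks the genes called over both runs. Ddit3 lies farthest to the left at -1.49, and Mbtps1 and Mbtps2 are the genes with values above 0.

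Levels also differed between the runs, for 5 of the 10 genes, all lower in run 3, where 31.4% of all tested genes were called between runs and 16.3% were lower in run 3. The run 3 to run 1 log2 difference was -1.20 for Ddit3, -0.98 for Ppp1r15a, -0.48 for Ern1, -0.41 for Atf6 and -0.34 for Xbp1. Run 3 was also the run with low acinar marker levels, and their part in the difference between runs was not tested. In a fit that also held the acinar marker level, 11.1% of all tested genes were called in either direction, against 18.5% without it. The 5 genes called lower were among them, at -0.50 for Ern1, -0.34 for Xbp1, -0.60 for Eif2ak3, -0.68 for Atf4 and -1.44 for Ddit3. Between the 2 Ogt f/+ and 3 Ogt f/f control libraries edgeR called 0 genes (0%), with 398 at an unadjusted p under 0.05, and DESeq2 called 0. Both f/+ libraries were in run 1, where WT 2 was the only f/f control, and WT 4 and WT 5 entered only through the run term. The 0 calls therefore do not show that the controls are alike. Ern1, the gene with the lowest p of the 10 in this test (edgeR unadjusted p = 0.019), had a log2 difference of -0.37 ± 0.14 (SE) in f/+ relative to f/f. Against the f/f controls alone, with WT 2 the only control of run 1, the KO log2 fold change of Ern1 was -0.58.

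Values per transcript length, the authors' FPKM, allow the genes to be ordered. In WT, the mean FPKM was 463 ± 259 for Ddit3, 281 ± 23.7 for Atf4, 85.1 ± 8.24 for Xbp1, 74.1 ± 11.9 for Ern1 and 47.0 ± 22.5 for Ppp1r15a (SD, n = 5). Below these stood Mbtps1 at 33.7, Atf6 at 32.8, Eif2ak3 at 22.8, Atf6b at 12.4 and Mbtps2 at 3.20 FPKM. Of the sensors, Ern1 was thus the most abundant transcript and Atf6b the least. The ranges of neighbours in this order did not overlap between Atf4 and Xbp1, Atf6 and Eif2ak3, Eif2ak3 and Atf6b, and Atf6b and Mbtps2. They overlapped for the other neighbours, including Ddit3 and Atf4, where Ddit3 was the higher in 3 of 5 WT libraries.

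In KO the order began with Atf4 at 170 ± 18.3 FPKM and Ddit3 at 145 ± 48.9 FPKM (SD, n = 4), and Atf4 was the higher in 2 of 4 libraries. Mbtps1, at 38.4 FPKM, stood above Ppp1r15a at 35.4 FPKM. On log2(FPKM + 1), limma called the same 5 genes lower, against 8.22% of the 11878 genes tested (15.5% in either direction): Ern1 at -0.46, Xbp1 at -0.38, Eif2ak3 at -0.59, Atf4 at -0.74 and Ddit3 at -1.46. The FPKM values come from the same libraries and are no independent check.

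**Figure D3:**
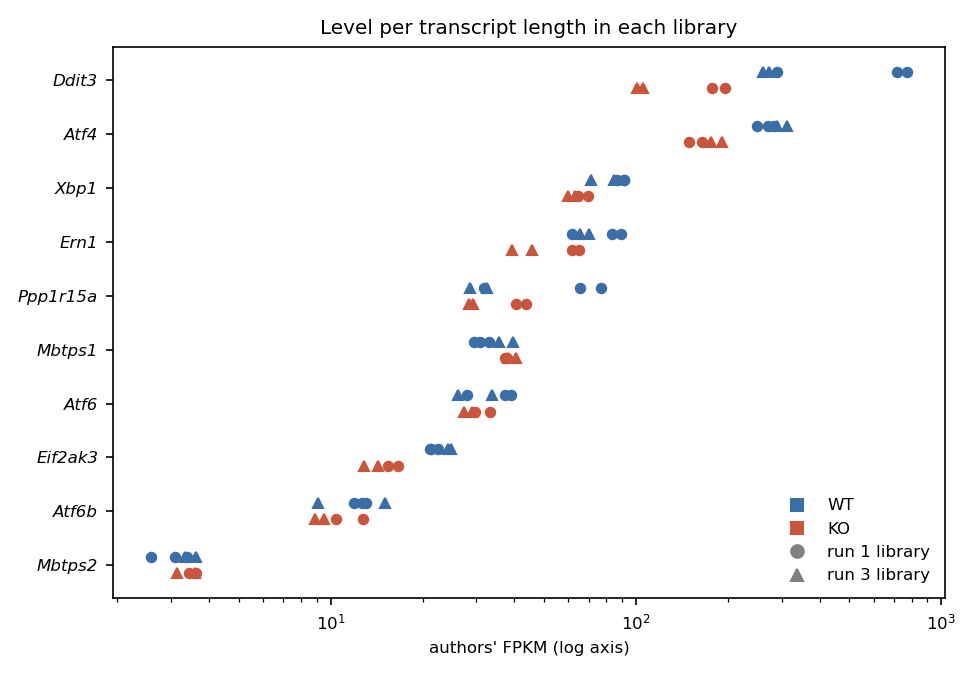
The authors' FPKM on a log axis for each gene and library, ordered by the WT mean, with WT in blue, KO in red, circles for run 1 and triangles for run 3. Ddit3 spans the widest range of the genes in WT, while Atf4 and Eif2ak3 each form a tight WT group with all KO libraries to its left.

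Ratios of members that act on each other were compared within libraries, for 6 pairs chosen with the values in view. Their p-values therefore describe these libraries and are no independent test. Ppp1r15a and Ddit3 gave the ratio whose groups did not overlap over both runs. Ddit3 by itself was lower in every KO library, so this ratio is not a result separate from that fall. How often ratios of other gene pairs keep the groups apart was not computed. The FPKM of Ppp1r15a was 0.107, 0.0851, 0.110, 0.119 and 0.110 of that of Ddit3 in WT 1 to 5 and 0.222, 0.227, 0.270 and 0.290 of it in KO 1 to 4. All KO libraries were above all WT libraries, and WT 1 and WT 2, which stood apart in the level of each gene, had ratios like those of the other WT libraries. The log2 CPM ratio was 1.21 higher in KO (exact two-sided permutation within runs, p = 0.0167, the smallest that its 60 arrangements allow, and 0.10 adjusted over the 6 pairs), and it stayed between 1.16 and 1.24 when each library was left out.

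**Figure D4:**
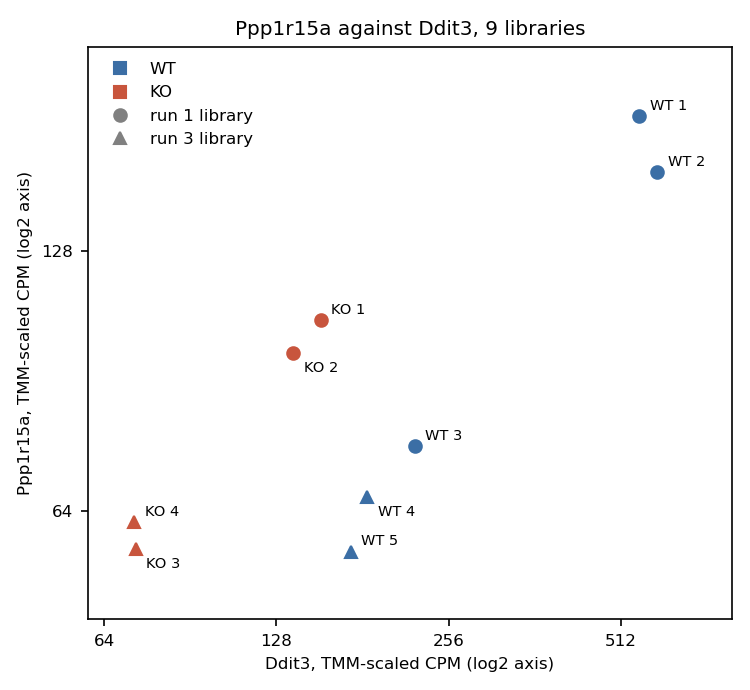
Ppp1r15a against Ddit3 in TMM-scaled CPM, on log2 axes, with each of the 9 libraries named, WT in blue, KO in red, circles for run 1 and triangles for run 3. KO libraries lie to the left of WT libraries of like Ppp1r15a level, as for KO 3 and KO 4 beside WT 5.

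The FPKM of Ddit3 was 2.54, 2.86, 1.16, 0.874 and 0.897 times that of Atf4 in WT 1 to 5 and 1.19, 1.19, 0.599 and 0.525 times in KO 1 to 4. These groups overlapped in run 1 and not in run 3, and the log2 CPM ratio differed by -0.69 (exact two-sided permutation p = 0.0667, 0.20 adjusted over the 6 pairs). The ratios of Atf6 to Atf6b, Xbp1 to Ern1, Atf4 to Eif2ak3 and Mbtps1 to Mbtps2 differed by 0.15, 0.09, -0.15 and 0.08, with exact permutation p-values between 0.20 and 0.60. With each library left out these 4 differences ranged from 0.08 to 0.29, from 0.01 to 0.17, from -0.21 to -0.09 and from -0.0054 to 0.16, so that the Mbtps1 to Mbtps2 difference lost its sign without WT 5. The Atf4 to Eif2ak3 ratio was lower in KO in run 1 and higher in KO in run 3.

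After each run was centred on its own mean, several members varied together over the 9 libraries, which share runs and genotypes and therefore the KO difference itself. Pearson's r of log2 CPM was 0.97 for Xbp1 and Atf4, 0.93 for Eif2ak3 and Atf4, 0.93 for Atf4 and Ddit3 and 0.90 for Ern1 and Eif2ak3. Ppp1r15a had an r of 0.82 with Atf6 and 0.70 with Ddit3, and Mbtps1 had an r of -0.78 with Atf4.

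By the same measure over the same 9 libraries, the genes most like Atf4 were Dnajb9, an ER chaperone partner (r = 0.995), Ghitm (0.994) and Jade1 (0.992). Those most like Ddit3 were Slc3a2, a subunit of amino acid transporters (0.996), Nars, the asparaginyl-tRNA synthetase (0.988) and Eif4ebp1, a repressor of cap-dependent translation (0.987). Xbp1 was most like Tmed3, which carries ER cargo (0.991), Magt1, a subunit of oligosaccharyltransferase (0.990), and Fkbp2, an ER prolyl isomerase (0.988). For Eif2ak3 they were Tmem42 (0.990), Cul1, the scaffold of a ubiquitin ligase (0.990), and Ptprj, a receptor tyrosine phosphatase (0.985). Ern1 was most like Ankmy2 (0.973), the splicing factor Rbm39 (0.973) and Tom1l2 (0.968). These genes were all lower in KO, with log2 fold changes from -1.01 for Tmem42 to -0.33 for Cul1. That direction follows from the choice, by correlation with genes called lower in the same libraries, and is no separate result.

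Other genes of the pathway were counted by list, beside a median log2 fold change of 0.02 over all 12501 genes tested, of which 8.96% were called lower and 9.56% higher. Of 25 ER genes that ATF6 and XBP1 direct, 18 fell, 0 rose and 7 were not called, with a median of -0.41. Edem1, which helps send misfolded glycoproteins to degradation, fell from 153 to 65.7 CPM (log2 fold change -1.19). Dnajb9 fell from 277 to 145 CPM (-0.93), Derl1, a part of the degradation channel, fell from 135 to 76.9 CPM (-0.80), and Sel1l, the partner of the ubiquitin ligase HRD1, fell from 491 to 297 CPM (-0.68). The count of ER genes called lower was 4 without the run term, where 5.38% of all genes were called in either direction against 18.5% with it. It was 9 with library totals (16.4% of all genes) and 9 on FPKM with no filter (6.17%).

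Of 21 tested genes directed by ATF4 and CHOP, 11 fell, 0 rose and 10 were not called, with a median of -0.52, against 8.96% of all tested genes called lower. Without the run term 6 of them were called lower. Trib3, a pseudokinase that CHOP induces, fell from 102 to 35.1 CPM (-1.39), and Aldh1l2, a mitochondrial folate enzyme, fell from 177 to 66.4 CPM (-1.30). Slc3a2 fell from 343 to 182 CPM (-0.81), and Ero1l, an ER oxidase, fell from 126 to 62.4 CPM (-0.99). Of 11 bZIP factors related to or pairing with ATF4 and CHOP, 4 fell and 1 rose, with a median of -0.17. Atf5 fell by 0.96, Cebpg by 0.57, Nfe2l1 by 0.57 and Cebpd by 1.05 on the log2 scale. The gene that rose was Cebpa (1.41), from 1.60 to 3.40 CPM, named after its values were seen.

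The lists for the machinery around the sensors stand beside 18.5% of all tested genes called in either direction. With lists this short, a share above or below that background is not read as a result. Of 15 genes for the eIF2 kinases, eIF2, its exchange factor eIF2B and the phosphatase PP1, 1 fell (Eif2s2, -0.29) and 1 rose (Eif2b2, 0.68), with a median of -0.08. Of 13 IRE1 partners and ligation factors of Xbp1 RNA, Mapk9 (-0.64), Tmbim6 (-0.42) and Sec63 (-0.30) fell, while Fam98b (0.49), a part of the tRNA ligase complex, rose. Of 10 other membrane-anchored factors of the S1P and S2P route, 1 fell, Creb3l1 (-0.55), and the median was 0.01. The differences between lists were not tested, and the lists are not independent of earlier results on these libraries.

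**Figure D5:**
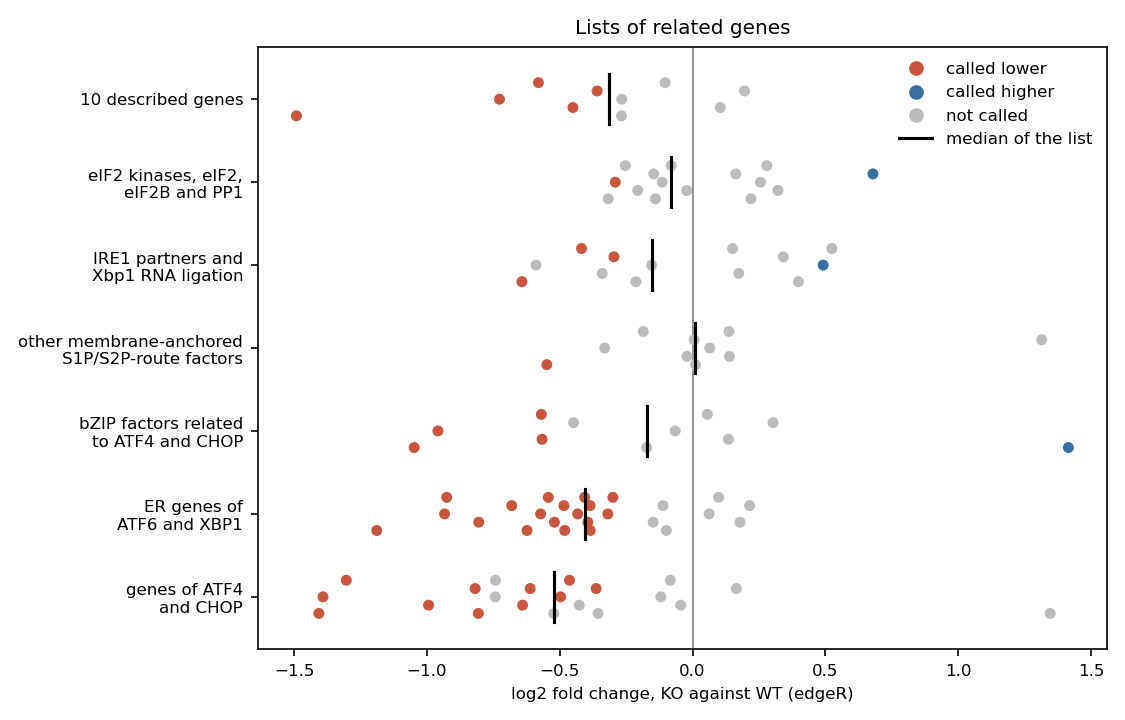
Log2 fold change of KO against WT for each tested gene of the lists, with genes called lower in red, called higher in blue and not called in grey, and a bar at each list's median. The ER genes of ATF6 and XBP1 and the genes of ATF4 and CHOP lie mostly to the left of 0, with medians of -0.41 and -0.52.

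The promoters of Eif2ak3, Atf4, Ddit3 and Ppp1r15a are shown because these genes form the PERK branch, of which the first 3 fell and Ppp1r15a was not called. Each is the 250 bases before the RefSeq transcription start (GRCm38.p6), written 5′ to 3′ on the gene's strand. RefSeq promoters were found for 9 of the 10 genes. Capitals mark CCAAT boxes, or their complement ATTGG, in Eif2ak3 (chr6:70844265-70844514, plus strand), Atf4 (chr15:80254934-80255183, plus strand) and Ddit3 (chr10:127290543-127290792, plus strand), and the cyclic AMP response element TGACGTCA in Ppp1r15a (chr7:45526269-45526518, minus strand).
Eif2ak3: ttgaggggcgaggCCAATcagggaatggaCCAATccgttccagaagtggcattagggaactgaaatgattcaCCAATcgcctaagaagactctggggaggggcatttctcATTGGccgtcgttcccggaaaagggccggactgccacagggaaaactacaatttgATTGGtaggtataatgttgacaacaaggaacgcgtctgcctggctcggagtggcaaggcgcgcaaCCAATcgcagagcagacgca
Atf4: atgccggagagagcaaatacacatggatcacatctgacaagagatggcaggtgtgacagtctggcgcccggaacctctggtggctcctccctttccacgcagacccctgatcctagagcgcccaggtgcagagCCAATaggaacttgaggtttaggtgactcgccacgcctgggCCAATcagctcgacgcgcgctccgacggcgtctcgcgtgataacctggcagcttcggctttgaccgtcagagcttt
Ddit3: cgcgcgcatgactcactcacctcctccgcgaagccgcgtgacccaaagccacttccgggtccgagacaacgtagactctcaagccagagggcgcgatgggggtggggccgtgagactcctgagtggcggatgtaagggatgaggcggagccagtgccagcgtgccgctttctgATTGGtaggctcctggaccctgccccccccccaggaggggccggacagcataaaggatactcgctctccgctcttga
Ppp1r15a: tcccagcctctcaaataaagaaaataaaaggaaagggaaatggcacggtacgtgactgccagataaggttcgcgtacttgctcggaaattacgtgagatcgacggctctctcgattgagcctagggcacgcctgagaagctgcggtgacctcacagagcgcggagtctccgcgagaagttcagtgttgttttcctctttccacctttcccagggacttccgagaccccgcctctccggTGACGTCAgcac

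CCAAT was present in 4 of the 9 promoters, 6 times in Eif2ak3, 2 times in Atf4 and 1 time each in Ddit3 and Atf6b, and in 33.9% of 32841 RefSeq promoters of the same length. At least 6 matches, as in Eif2ak3, were found in 0.0579% of them. TGACGTCA was found in Ppp1r15a, 12 to 5 bases before the start, and in 1.55% of promoters. Both strands were searched for the ER stress element, CCAAT and CCACG with 9 bases between them (0.113% of promoters), its second form, ATTGG and CCACG with 1 base between them (0.0304%), the XBP1 element core TGACGTGG (0.563%) and the ATF4 and CHOP composite element TGATGNAA (3.45%). None of these 4 motifs had an exact match in the 9 windows, the likely outcome for motifs this rare. Inexact matches and bases outside the windows were not searched, so the windows are not shown to lack such elements. In Ddit3 the marked box, read on the other strand, is CCAAT followed after 9 bases by GCACG, 1 base from the ER stress element. CCAAT is contained in the first, and its complement in the second. A match is a description of letters and not of a bound site.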

How the data were processed

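RNA of hand-picked islets, cultured overnight, was sequenced as stranded total RNA libraries, per the labels' protocols. The authors deposited raw read counts per gene symbol and FPKM values. FastQC, Bowtie2 2.2.4.0, Cuffdiff 2.2.1, edgeR and mm10 are named without roles, per the submitters' processing notes, and strand use in counting was not given in the sources used here. Overlapping antisense genes are therefore uncertain: 3.97% of Ddit3 exon bases overlap Mars, itself called lower (-0.45), and 8.05% of those of Eif2ak3 overlap a predicted gene. A further 27 symbols that had become dates, at most 0.186% of a library's counts, were left out.

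Counts were analysed in R 4.3.3 with edgeR 4.0.16 (TMM factors 0.816 to 1.18, filterByExpr by genotype, quasi-likelihood test on run and genotype, Benjamini-Hochberg over 12501 genes). The SE was derived from the fold change and its F statistic. Run-centred log2 CPM used a prior count of 2. FPKM were tested with limma 3.58.1 on log2(FPKM + 1), for genes of at least 1 FPKM in 4 libraries. DESeq2 1.42.0 and other scalings and filters were alternatives. Libraries of the same genotype, paired within and between runs, differed by more than counting noise (chi-square per degree of freedom 3.73 to 64.2). That spread can hold run and technical differences and does not show that the libraries are separate animals. Each library was counted as 1 sample. Genes had 50 to 2685 counts per library, which limits precision most for Mbtps2.

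The 10 genes and all lists were chosen with earlier results of these data known. Named list genes are the up to 4 called with the lowest p, and the most alike genes are the 3 with the highest correlation, predicted genes passed over. Simulated data at this size gave calls for 0 of 50 genes changed 1.25-fold, 22 of 50 at 1.5-fold and 36 of 50 at 2-fold. At 3-fold 46 of 50 were called, and 7 unchanged genes were called falsely. Far fewer genes were changed there than the 2315 called in the real data, which makes the adjusted threshold stricter. These shares are therefore no measure of power in the real data. Gene positions are from GENCODE M21 and promoters from RefSeq.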

Additional observations from a re-analysis of the deposited data

Results flagged for a closer look

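Atf6b in KO 1 stood apart from the other KO libraries, at 35.0 CPM against 28.5 CPM in the next, a gap of 0.862 of the group's range and above Dixon's critical value for 4 samples. It was the 1 group flagged of 20 tested (10 genes in each genotype), and chance flags about 1 in 20.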

How the results depend on the processing

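The count of 5 called genes became 2 without the run term (Eif2ak3 and Atf4), where calls over all genes fell from 18.5% to 5.38%. It became 3 with library totals in place of TMM scaling (Eif2ak3, Atf4 and Ddit3; 16.4% of all genes), a scaling that put the median of all genes at 0.13. It was between 5 and 6 when each library was left out, where 12.1% to 18.6% of all genes were called. Leaving out WT 3 added Ppp1r15a (-0.40) and leaving out WT 4 added Mbtps1 (0.25). Ern1 was also lost on FPKM with no filter (-0.46). Eif2ak3 and Atf4 were called in every alternative fit, with log2 fold changes from -0.66 to -0.47 and from -0.77 to -0.62. An exact two-sided permutation within runs, adjusted over the 10 genes, put none of them under 0.05. Its adjusted p was 0.056 for Xbp1, Eif2ak3 and Atf4 and 0.083 for Ern1, Ddit3 and Mbtps1. With 60 arrangements its unadjusted p cannot be below 0.0167. Without WT 1 and WT 2 together, Atf6 was 0.018 and Ppp1r15a 0.13, both turned in sign and neither called. The interaction of genotype and run changed sign with single libraries left out for Xbp1 (-0.040 to 0.17), Atf6 (-0.14 to 0.25), Atf6b (-0.57 to 0.048) and Atf4 (-0.016 to 0.15), and the cause was not tested. The lower calls among ER genes, 18, were 4 without the run term, 9 with library totals and 9 on FPKM with no filter. Those among ATF4 and CHOP genes, 11, were 6 without the run term. Where leaving out libraries left 1 of a genotype in a run (any KO library, WT 4, WT 5, or WT 1 and WT 2 together), it was assumed to vary like the others. No paired analysis was possible because the labels give the libraries no replicate numbers.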

Other observations

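Among the genes on the lists that were not called, some sit in the same steps as genes that fell; they are named after their values were seen. The other eIF2 kinases were measured at 70.1 and 67.4 CPM in WT and KO for Eif2ak1, the heme-regulated kinase, 45.8 and 55.9 CPM for Eif2ak2, the kinase PKR, and 31.8 and 25.9 CPM for Eif2ak4, the amino acid sensor GCN2. Their log2 fold changes were -0.02, 0.28 and -0.32, and none was called. Ppp1r15b, which encodes the constitutive counterpart of GADD34, had 129 ± 9.10 CPM over the 5 WT libraries and 119 ± 5.53 CPM over the 4 KO libraries (mean ± SD), with a log2 fold change of -0.11 that was not called.

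The 7 ER genes that were not called included the translocon genes Sec61a1 (0.21), Sec61b (-0.10) and Ssr1 (-0.15), the COPII coat gene Sec24d (0.10) and Syvn1 (0.18), which encodes HRD1, the ubiquitin ligase that works with SEL1L. Syvn1 measured 38.5 ± 3.46 CPM over the 5 WT libraries and 43.4 ± 5.22 CPM over the 4 KO libraries (mean ± SD), while Sel1l fell by 0.68 on the log2 scale. The remaining genes of the 7 were Creld2 (-0.11) and Dnajc10 (0.06).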
